A study of Mus musculus with 3 samples.

Results

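The Hox genes were followed as a group through single-cell libraries of mouse arterial cells. Members were the genes whose symbol is Hox, a letter from a to d and a number, with nothing after it, and 39 of the 32285 genes in the deposited tables met that rule. All 39 were found in the mouse annotation, 11 in the HoxA cluster on chromosome 6, 10 in HoxB on chromosome 11, 9 in HoxC on chromosome 15 and 9 in HoxD on chromosome 2. By paralogue group, the number that says which members of different clusters correspond, 8 belonged to groups 1 to 3, 15 to groups 4 to 8 and 16 to groups 9 to 13.

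Hox genes encode homeodomain transcription factors that lie in 4 clusters, and their order along each cluster matches the order of the body regions in which they are switched on. Members with low numbers are active far forward and early, and members with high numbers are active towards the tail. Cells of adult tissues, vessel walls included, keep much of the Hox pattern of the body region they formed in, and Pbx and Meis proteins bind DNA together with Hox proteins as cofactors.

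The study measured arterial digests of wild-type mice at 3 weeks with droplet-based 3′ RNA sequencing, which counts captured transcripts as unique molecular identifiers (UMIs). There was 1 library for mice given vehicle, 1 for mice given sunitinib, an inhibitor of receptor tyrosine kinases, and 1 for mice given sunitinib + Yoda1, an activator of the mechanosensitive channel PIEZO1. The last library's title names Yoda1 alone, and it was taken as the combined treatment, the only Yoda1 treatment that the study design lists. The sources used here do not give strain, age, sex, dose, arterial segment or the number of animals in a library. With 1 library a group there was no replicate check and no test, so every difference below compares libraries, animal and treatment cannot be told apart, and all intervals are 95% intervals that cover counting error only.

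Cells were kept at 500 UMIs and 300 genes or more and at most 15% mitochondrial UMIs, which left 3947 of 4491 barcodes in the vehicle library, 4148 of 4506 in the sunitinib library and 3130 of 5118 in the sunitinib plus Yoda1 library. Median UMIs per kept cell were 16561, 15902.5 and 5451.5. Smooth muscle cells, defined by at least 2% of UMIs from the contractile genes Acta2, Tagln, Myh11 and Cnn1, numbered 3614, 3818 and 65. Endothelial cells, with Pecam1 and Cdh5 UMIs, numbered 140, 160 and 343, and fibroblasts, with Pdgfra and Dpt UMIs, numbered 5, 3 and 150. In each library all 10 smooth muscle markers were detected in the smooth muscle cells and all 10 endothelial markers in the endothelial cells. This does not test the classes, because the markers include the genes that defined them. All 10 endothelial markers were also detected in smooth muscle of the vehicle and sunitinib libraries, and all 10 smooth muscle markers in their endothelium. Per 1000000 UMIs, endothelial markers, Pecam1 and Cdh5 included, summed to 67.6 and 72.5 in that smooth muscle, against 7185 and 7266 in that endothelium. The third library stood apart from its label of vascular tissue, because 2016 of its 3130 kept cells were leukocytes with Ptprc, against 6 and 0 in the others. It was also counted with Cell Ranger 7.1.0 and the others with 6.0.0. Pairs of libraries shared 3, 3 and 8 cell barcodes.

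Hoxa9, Hoxa10, Hoxd4 and Hoxd8 are among the members that differed most between endothelium and smooth muscle, and sequences upstream of their starts are shown for that reason. No relation between these sequences and the levels was tested. Hoxb9, another of these, has no entry. The 250 bases before the RefSeq transcription start are printed 5′ to 3′ on the gene's strand, build GRCm38.p6. Capitals mark TATAAA or TTAATNA, a homeodomain-type sequence, in the strand order in which it was found, either way round.
Hoxd4 promoter, chr2:74721728-74721977, plus strand: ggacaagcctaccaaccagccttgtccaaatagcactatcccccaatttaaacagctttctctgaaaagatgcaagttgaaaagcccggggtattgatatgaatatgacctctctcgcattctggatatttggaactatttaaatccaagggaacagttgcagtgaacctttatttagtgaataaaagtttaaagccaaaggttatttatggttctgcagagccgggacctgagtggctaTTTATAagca
Hoxa9 promoter, chr6:52227371-52227620, minus strand: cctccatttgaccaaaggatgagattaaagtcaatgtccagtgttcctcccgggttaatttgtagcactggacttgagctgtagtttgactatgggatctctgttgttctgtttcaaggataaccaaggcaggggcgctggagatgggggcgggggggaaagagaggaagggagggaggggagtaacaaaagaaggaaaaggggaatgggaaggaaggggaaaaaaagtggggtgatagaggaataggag
Hoxd8 promoter, chr2:74704365-74704614, plus strand: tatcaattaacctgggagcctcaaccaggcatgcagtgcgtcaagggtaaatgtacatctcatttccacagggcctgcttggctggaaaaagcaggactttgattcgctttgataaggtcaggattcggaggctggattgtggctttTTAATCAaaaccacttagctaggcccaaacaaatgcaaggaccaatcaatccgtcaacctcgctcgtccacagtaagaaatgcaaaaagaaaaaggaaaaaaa
Hoxa10 promoter, chr6:52234940-52235189, minus strand: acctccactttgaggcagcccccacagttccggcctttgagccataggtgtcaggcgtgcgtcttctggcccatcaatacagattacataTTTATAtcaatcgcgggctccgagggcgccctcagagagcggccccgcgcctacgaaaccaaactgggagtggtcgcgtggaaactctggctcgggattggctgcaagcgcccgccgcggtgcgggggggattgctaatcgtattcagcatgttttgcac
None of these windows overlapped an annotated exon. The Hoxd8 window ends at the start of its gene, and the others lie within the annotated span of their own gene, upstream of an inner start. Hoxd4 held TATAAA on the reverse strand 10 bases before the start, and the printed Hoxa10 window held it on the reverse strand 160 bases before. A second RefSeq window for Hoxa10 (chr6:52240855-52241104), upstream of the outer start of the gene, held none of the 3 motifs searched. Hoxd8 held TTAATNA on the forward strand 103 bases before the start. No capitals fell in the Hoxa9 window, which says only that these letters are not in these 250 bases. RefSeq windows were matched for 22 of the 39 members, 24 windows in all. TATAAA stood in 4 of these 24 windows, 16.7%, and in 12.4% of 32851 promoters of the same length. TTAATNA stood in 3, 12.5%, against 9.91%. TGATNNAT, the letters of a composite Pbx and Hox site, stood in 4, 16.7%, against 7.68%. With so few windows, nothing particular to the Hox genes is read from these shares. No match overlapped a match of a different motif, though TATAAA matches on both strands of the Hoxd13 window overlapped each other. The Hox windows had a median of 58.6% G and C against 52.4%.

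In smooth muscle, Hox transcripts came mainly from HoxA and HoxB. Levels are given as CPM, the UMIs of a gene per 1000000 UMIs of all genes in the cells of a class and library. Summed Hox UMIs stood at 267 CPM in the vehicle library and 292 CPM in the sunitinib library. HoxA gave 40.1% and 43.4% of these UMIs and HoxB gave 52.6% and 49.8%, while HoxC gave 6.26% and 5.93% and HoxD 1.05% and 0.899%. A Hox UMI was seen in 93.1% and 89.2% of smooth muscle cells. In leukocytes of the third library 5.06% of cells had a Hox UMI, at a median depth of 5821 UMIs against 16884 and 16281 in smooth muscle. Only 65 of the 3130 kept cells of that library were smooth muscle, so its leukocytes do not give the background of the other libraries.

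Groups 1 to 3, the most anterior members, gave 33.5% of smooth muscle Hox UMIs in the vehicle library and 28.3% in the sunitinib library. Hoxb2 (chr11:96350525-96354012), known for its part in hindbrain segments, was the highest member of the vehicle library at 46.8 CPM, against 42.3 in the sunitinib library, and 52.7% and 44.8% of cells had a UMI. Hoxa3, which acts in pharyngeal arch development, stood at 22.6 and 20.5 CPM. Hoxb3 stood at 16.1 and 15.3. These 3 genes made up most of the anterior signal, while Hoxa2 was at 2.83 and 3.23 CPM. Part of the Hoxa3 count is uncertain, since its gene spans Hoxa4, Hoxa5 and Hoxa6 on the same strand, and Hoxb2 and Hoxb3 overlap the antisense gene Hoxb3os. Since 3′ UMIs are counted once per captured transcript, no length scaling was made, but capture can differ between genes.

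Groups 4 to 8 gave 59.0% and 64.9% of the Hox UMIs. Hoxa7 (chr6:52214491-52221854), a regulator of thoracic identity, was at 38.2 CPM in the vehicle library and 57.4 in the sunitinib library, where it passed Hoxb2. Hoxa5, which acts in lung and thoracic skeleton, was at 26.9 and 28.7, and Hoxb4, also known from blood stem cells, at 24.7 and 25.1. Below these came the middle HoxB genes, where Hoxb7 and Hoxb6 changed places between the libraries. Hoxb6 was at 19.6 and 19.2, Hoxb7 at 13.1 and 19.9, Hoxb5 at 10.8 and 13.5 and Hoxb8 at 6.94 and 7.19 CPM. The remaining middle members were lower, with Hoxc6 at 5.57 and 5.33, Hoxa4 at 5.43 and 5.82, Hoxc8 at 1.99 and 2.45 and Hoxd8 at 1.70 and 1.38. Hoxa6, Hoxc4, Hoxc5 and Hoxd4 were each below 2 CPM in both libraries.

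Groups 9 to 13, the posterior members, gave 7.58% and 6.79% of the Hox UMIs. Hoxc10 (chr15:102966796-102971893), linked to lumbar and hindlimb levels, was highest at 5.51 and 5.03 CPM, with a UMI in 7.17% and 5.37% of cells. Hoxa10, which acts in lumbar vertebrae and the uterus, was at 4.72 and 3.96. Hoxa9, also active in blood progenitors, was at 3.83 and 4.58. Below these 3, Hoxb9 stood at 2.56 and 2.88, Hoxc9 at 2.37 and 2.37 and Hoxd9 at 0.780 and 0.779 CPM. Hoxa11 had 20 and 13 UMIs, and Hoxc11 had 12 UMIs in the vehicle library and 1 in the sunitinib library. Hoxb13, Hoxc12, Hoxc13, Hoxd1 and Hoxd12 had no UMI in any kept cell of the 3 libraries, which in vehicle smooth muscle allows up to 0.0433 CPM. Of the others, Hoxa13, Hoxb1, Hoxd3, Hoxd10, Hoxd11 and Hoxd13 had at most 2 UMIs in smooth muscle of any library.

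**Figure D1:**
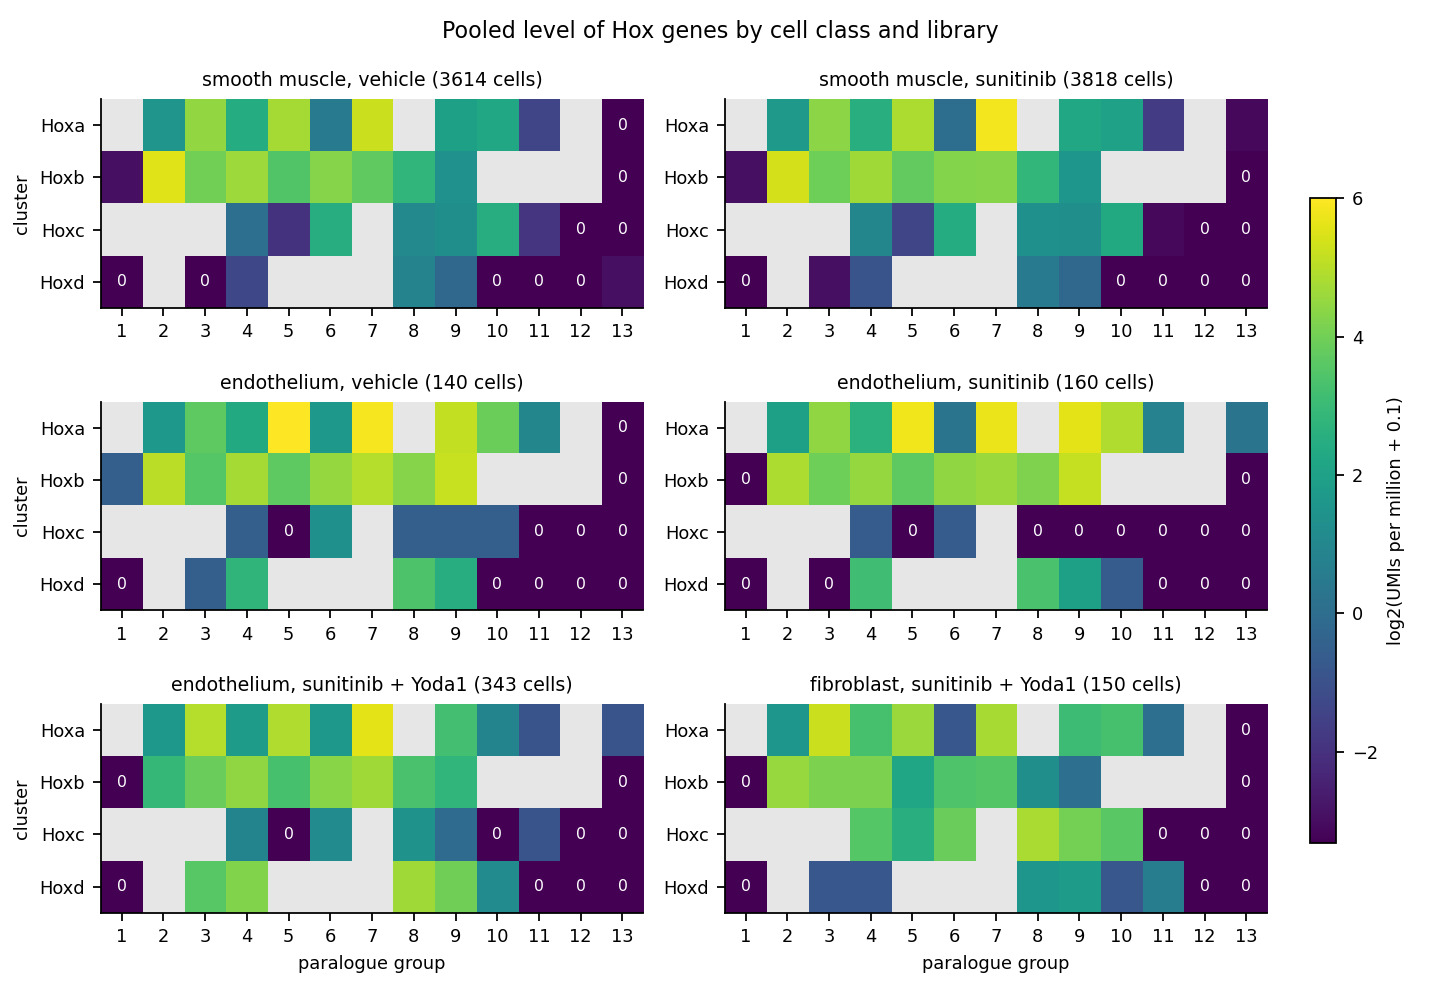
Each panel shows 1 cell class of 1 library, with the Hox clusters as rows, paralogue groups 1 to 13 as columns and colour for log2 of CPM plus 0.1, where grey marks positions with no gene or none drawn and 0 marks no UMI. In smooth muscle every HoxA and HoxB gene of groups 2 to 9 has UMIs, and so do Hoxa10 and Hoxa11. Hoxb2 is at 46.8 CPM in the vehicle library. Among these panels HoxC stands out in fibroblasts of the sunitinib plus Yoda1 library, with Hoxc8 at 28.1 CPM. Smooth muscle of that library is not drawn.

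Between the sunitinib and vehicle libraries, most Hox genes of smooth muscle were at a similar level, and 4 were at least 1.5-fold higher with none as much lower. Ratios were taken for the 27 members with at least 20 UMIs over both libraries, leaving 7 members at 0 in both and 5 with 1 to 19 UMIs. The median log2 ratio of the 27 was 0.05, with a range of -0.49 to 0.94, beside a median of 0.09 over 13961 genes. Over all those genes 7.41% were at least 1.5-fold higher, 4.76% as much lower and 12.2% apart either way. With so few members, nothing particular to the Hox genes is read from the count of 4.

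Hoxa7 was higher by a log2 ratio of 0.59 (0.52 to 0.66), from 2645 UMIs in the vehicle library and 3610 in the sunitinib library. Hoxb7, its HoxB paralogue, was higher by 0.61 (0.49 to 0.74), from 904 and 1253 UMIs. Hoxc4 was higher by 0.94 (0.49 to 1.40), from 66 and 115 UMIs, and Hoxc5 by 0.85 (-0.31 to 2.08), an interval that includes 0, from 11 and 18 UMIs. The lowest ratios were those of Hoxa6 at -0.49 (-0.996 to -0.0018) and Hoxa11 at -0.48 (-1.61 to 0.60). Among well-counted anterior members Hoxb2 was at -0.15 (-0.22 to -0.07) and Hoxa3 at -0.14 (-0.25 to -0.04). Hoxa7 and Hoxb7 lay close to the 1.5-fold line and fell under it with TMM scaling, at 0.50 and 0.53, and with median-of-ratios size factors, at 0.49 and 0.51. They also fell under it with the mean of CPM over cells, at 0.54 and 0.52, and with smooth muscle drawn at 5% contractile UMIs, at 0.51 and 0.55. With each cell thinned to at most 3000 UMIs, Hoxa7 at 0.46 and Hoxc4 at 0.52 were under the line and Hoxb7 at 0.84 was above it. Smooth muscle markers summed to 43564 CPM in the vehicle library and 49932 in the sunitinib library, and 1783 of 3614 and 1055 of 3818 smooth muscle cells had 2 to 4% contractile UMIs, close above the cut. The part of these shifts in the Hoxa7 and Hoxb7 values was not tested.

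The Hox cofactors, taken as a list of 11 Pbx, Meis, Pknox and Tgif genes, were all measured in smooth muscle, and 0 were 1.5-fold higher and 2 lower, with a median log2 ratio of -0.08. Beside this and the list counts that follow stand the 7.41% of all genes that were higher and the 4.76% that were lower. The lower ones were Tgif2 at -1.68 (-2.18 to -1.21) and Tgif1 at -0.92 (-1.07 to -0.78), homeodomain repressors of the same superclass. The cofactors Meis1 at -0.08 and Meis2 at 0.09 were near 0. Of 18 genes of the retinoic acid, Cdx and related inputs to Hox clusters, 8 were measured, none higher and 1 lower, the retinoic acid receptor Rara at -0.76 (-0.93 to -0.60). Of 20 Polycomb and Trithorax genes, which hold Hox clusters silent or active, 20 were measured, none higher and 2 lower, among them the histone demethylase Kdm6b at -0.81. Of 45 other positional transcription factors, 29 were measured, none higher and 4 lower, with a median log2 ratio of -0.10. Of 11 antisense and intergenic RNAs of the clusters found in the files, 6 were measured. The HoxA RNA Hotairm1 was at 47.4 CPM in the vehicle library and 31.2 in the sunitinib library, a log2 ratio of -0.60 (-0.68 to -0.52). Hoxaas3, antisense to Hoxa7, was at 0.60 (0.29 to 0.91). The sources used here do not say whether the authors' counting used strand, so reads of Hoxa7 and Hoxaas3 may not be fully separate.

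**Figure D2:**
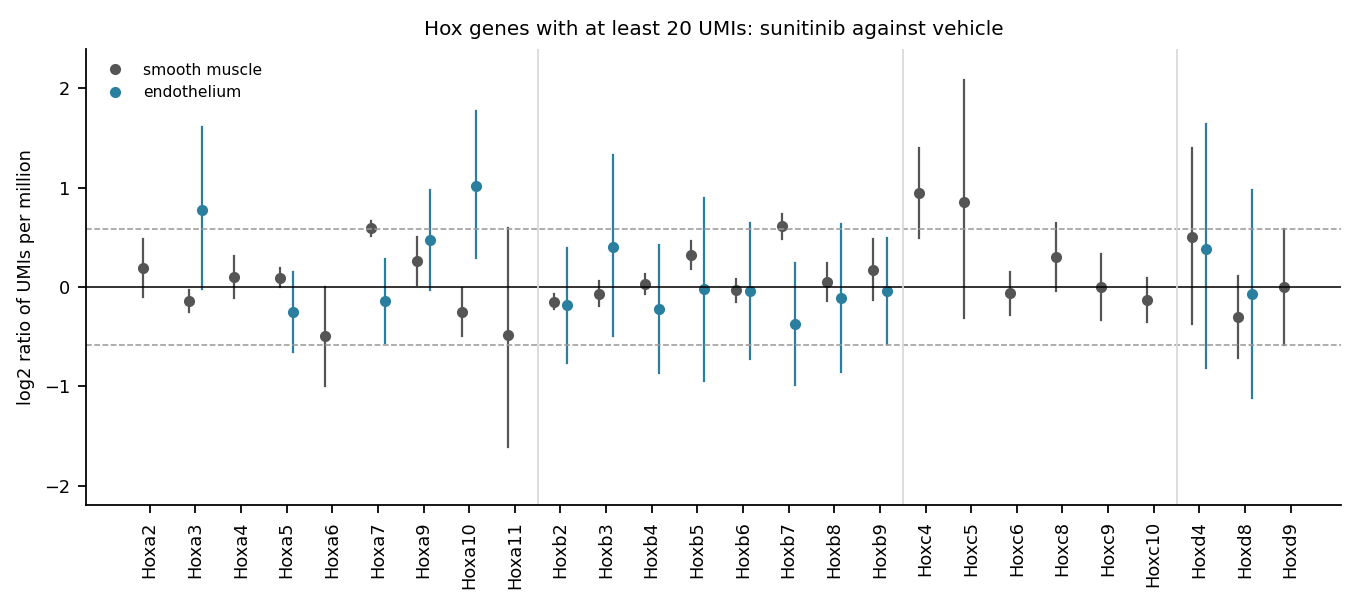
Points give the log2 ratio of sunitinib over vehicle CPM for the members drawn, all with at least 20 UMIs, in smooth muscle and endothelium, with lines for 95% counting intervals and dashed lines at 1.5-fold. In smooth muscle Hoxa7, Hoxb7, Hoxc4 and Hoxc5 lie past the upper dashed line, and in endothelium Hoxa10 at 1.01 and Hoxa3 at 0.77 do.

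Endothelial cells carried more posterior and HoxD transcripts than smooth muscle of the same library, and almost no HoxC. Summed Hox UMIs were 423 CPM in endothelium of the vehicle library and 429 in the sunitinib library. Groups 9 to 13 gave 22.5% and 28.2% of these UMIs, against 7.58% and 6.79% in smooth muscle. With every cell thinned to 3000 UMIs, a UMI of groups 9 to 13 was seen in 24.0% and 31.5% of endothelial cells and in 5.61% and 5.19% of smooth muscle cells, and their intervals did not overlap. The unthinned shares were 44.3% and 51.9% in endothelium, at median depths of 8587.5 and 7851, and 16.9% and 14.9% in smooth muscle. Leukocytes of the third library thinned the same way gave 0 of 1927 cells, with an upper bound of 0.191%. Smooth muscle markers summed to 52.2 CPM in those leukocytes, against 2262 and 2787 in endothelium of the vehicle and sunitinib libraries. They therefore do not give the background of this endothelium.

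In the vehicle library 12 of 26 measured members were at least 1.5-fold higher in endothelium and 6 lower, where 28.5% of all genes were higher and 22.5% lower. In the sunitinib library 9 of 25 were higher and 3 lower, where the shares of all genes were 30.1% and 21.0%. The median ratio of the members was 0.43 (0.25 without the member at 0 in endothelium) and 0.20 (0.25 without 3 such members), and of all genes 0.16 and 0.20. In both libraries together, 8 of 25 members were higher and 3 lower, against 22.1% and 16.3% of all genes. The 8 were Hoxa5, Hoxa9, Hoxa10, Hoxb8, Hoxb9, Hoxd4, Hoxd8 and Hoxd9, and the 3 were Hoxc4, Hoxc6 and Hoxc10.

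Hoxb9 stood at 36.8 and 35.8 CPM in endothelium against 2.56 and 2.88 in smooth muscle, log2 ratios of 3.85 (3.40 to 4.28) and 3.63 (3.20 to 4.05). Hoxa9 stood at 35.0 and 48.4 against 3.83 and 4.58, ratios of 3.19 (2.75 to 3.61) and 3.40 (3.04 to 3.75). Hoxa10 gave 1.64 (0.98 to 2.24) and 2.91 (2.45 to 3.34). These 3 posterior genes were thus higher in endothelium in both libraries by intervals that exclude 0. In HoxD, Hoxd4 gave 4.48 and 4.36 on 11 and 16 endothelial UMIs, and Hoxd8 gave 2.61 and 2.84 on 17 and 18. Hoxd9 gave 2.82 and 2.30 on 9 and 7 endothelial UMIs. The genes of this set that also stood high in smooth muscle differed less, with Hoxa5 at 1.30 and 0.95 and Hoxb8 at 1.5 and 1.34.

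HoxC ran the other way. All 9 HoxC genes together had 8 UMIs in endothelium of the vehicle library and 2 in that of the sunitinib library, out of 690 and 779 Hox UMIs, while smooth muscle had 1159 and 1088. Hoxc10 had 1 and 0 UMIs in endothelium against 382 and 316 in smooth muscle, a ratio of -3.17 (-8.48 to -0.68) in the first and at least 3.05-fold lower in the second, taking 3 counts as the limit that 0 allows. Hoxb2 was lower by less than 1.5-fold, at -0.53 (-0.95 to -0.14) and -0.56 (-0.99 to -0.17). Smooth muscle markers summed to 2262 and 2787 CPM in endothelium, against 43564 and 49932 in smooth muscle, and the part of such transcripts in the endothelial Hox values was not tested. In bulk sums over a class, fewer cells with a transcript and less of it per cell cannot be told apart.

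**Figure D3:**
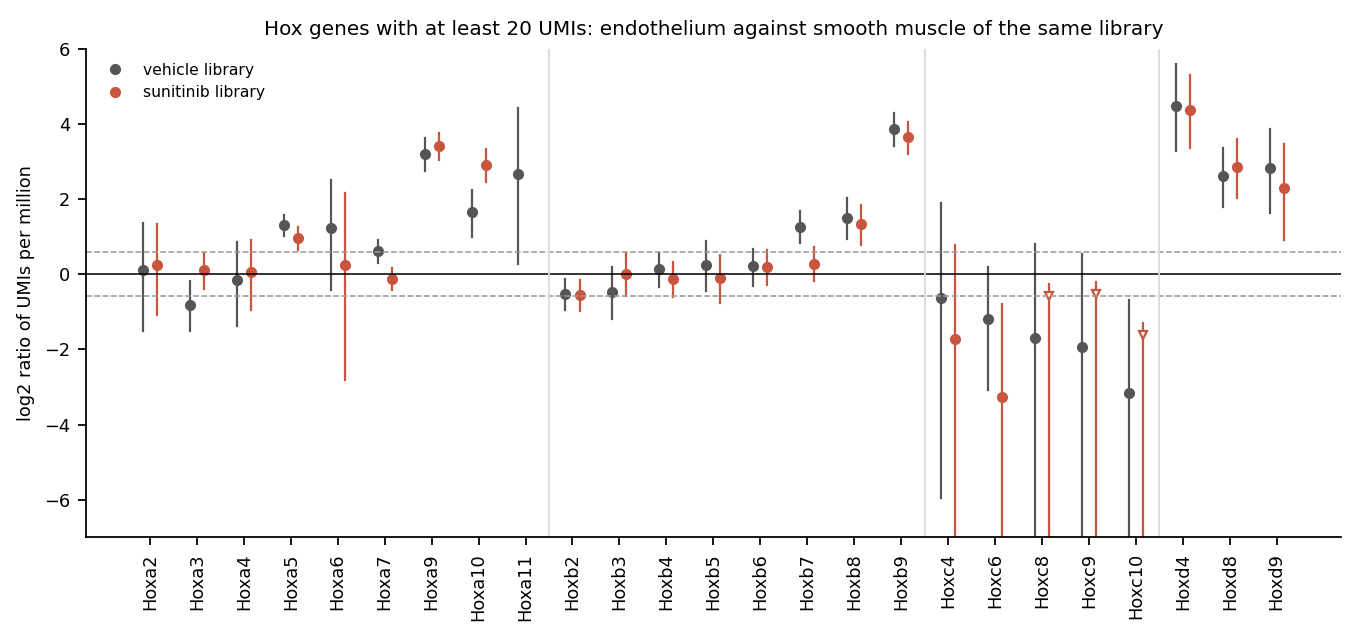
Points give the log2 ratio of endothelial over smooth muscle CPM of the members drawn in the vehicle and the sunitinib library, with lines for 95% counting intervals, and open triangles mark bounds where endothelium had 0 UMIs. Posterior members of HoxA and HoxB and the HoxD genes lie above 0, with Hoxb9 at 3.85 and 3.63, and the HoxC genes lie below 0.

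Within endothelium, the sunitinib and vehicle libraries had few Hox genes apart by 1.5-fold, and the counts were small. Of 15 measured members, 2 were at least 1.5-fold higher in the sunitinib library and 0 lower, where 12.0% of all genes were higher, 6.39% lower and 18.4% apart either way. The median ratio was -0.04 over the members and 0.12 over 9181 genes. Hoxa10 had 24 UMIs in the vehicle library and 54 in the sunitinib library, 14.7 and 29.7 CPM, a ratio of 1.01 (0.29 to 1.77). Hoxa3 had 21 and 40 UMIs, a ratio of 0.77 (-0.02 to 1.61). Hoxa7, higher in smooth muscle of the sunitinib library, was at -0.14 (-0.57 to 0.28) in endothelium, and Hoxb7 at -0.37 (-0.99 to 0.24). Whether the classes differ in these ratios was not tested.

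The endothelium of the sunitinib plus Yoda1 library had fewer posterior HoxA and HoxB transcripts and more HoxD transcripts than that of the sunitinib library. Of 17 measured members, 4 were at least 1.5-fold higher and 6 lower, where 37.1% of all genes were higher, 20.3% lower and 57.4% apart either way. The member count was 10 of 17, near that last share. The median ratio was -0.11 over the members (-0.12 without the member at 0) and 0.22 over all genes.

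Hoxa10 was at 29.7 CPM in the sunitinib library and 1.74 in the sunitinib plus Yoda1 library, a ratio of -4.10 (-6.02 to -2.66). Hoxa9 was at 48.4 and 9.12, a ratio of -2.41 (-3.17 to -1.71), and Hoxb9 at 35.8 and 6.95, a ratio of -2.36 (-3.25 to -1.56). Hoxb2 was at 28.6 and 7.39, a ratio of -1.95 (-2.84 to -1.14). The lower genes thus included the anterior Hoxb2 as well as the posterior members, with Hoxa5 at -0.91 and Hoxb8 at -0.86. In HoxD, Hoxd9 was at 3.85 and 15.6, a ratio of 2.02 (0.83 to 3.43), Hoxd8 at 1.35 (0.56 to 2.20) and Hoxd4 at 1.09 (0.23 to 2.01). Hoxd3 had 0 UMIs in the sunitinib library and 27 in the other, at least 7.11-fold higher, though it shares bases with Hoxd4. Hoxd3 has 32325 intron bases, and whether introns were counted alike by Cell Ranger 7.1.0 in the sunitinib plus Yoda1 library and 6.0.0 in the others is not given, so counting and treatment cannot be told apart here. HoxD gave 22.2% of the endothelial Hox UMIs there, against 5.39%. The HoxA RNA Halr1 had 41 UMIs in this endothelium and 0 in the sunitinib library.

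Against vehicle endothelium, Hoxa10 was at -3.08, Hoxa9 at -1.94, Hoxb9 at -2.40, Hoxd8 at 1.27 and Hoxd9 at 1.5. Of the 17 members measured there, 5 were at least 1.5-fold higher and 6 lower, where 41.1% of all genes were higher, 16.8% lower and 57.9% apart either way. Both comparisons use the same sunitinib plus Yoda1 cells. In that endothelium, red cell markers summed to 36860 CPM and the 4 lymphatic markers to 698, against 3.30 and 23.7 in the sunitinib library. Smooth muscle markers summed to 288 CPM there and to 2787 in the sunitinib library. The part of these differences in the Hox values was not tested, and the Cell Ranger version cannot be told apart from the treatment.

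The 65 smooth muscle cells of the sunitinib plus Yoda1 library gave 269 Hox UMIs, 271 CPM. Of 26 measured members, 10 were at least 1.5-fold higher than in the sunitinib library and 6 lower, where 32.9% of all genes were higher, 10.1% lower and 43.0% apart either way. The median ratio was 0.43 (0.32 without 3 members at 0), beside 0.30 over all genes. The 6 lower members were all of groups 4 to 7, among them Hoxb7 at -1.31 (-2.52 to -0.32), Hoxb6 at -1.08 (-2.21 to -0.15) and Hoxa7 at -0.98 (-1.56 to -0.45). Among the higher members, Hoxa3 was at 0.98 (0.48 to 1.43), Hoxc8 at 2.04 (0.95 to 2.96) and Hoxc10 at 1.38 (0.46 to 2.18). Hoxa3 has 38261 intron bases, to which the same limit on the Cell Ranger version applies. Only 29 Hoxa7 UMIs and 10 Hoxc8 UMIs lie behind these values, and red cell markers summed to 7073 CPM in those cells. With smooth muscle drawn at 5% contractile UMIs, only 5 of these cells remained and Hoxa7 turned to 0.29.

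Fibroblasts could be described in the sunitinib plus Yoda1 library alone, where 150 cells gave 639 Hox UMIs, 310 CPM. HoxC gave 28.6% of these, against 2.37% in endothelium and 13.4% in the 65 smooth muscle cells of that library. A HoxC UMI was seen in 32.0% of these fibroblasts and in 26.2% of those smooth muscle cells. Hoxc8 was at 28.1 CPM, Hoxc9 at 16.5, Hoxc6 at 14.6, Hoxc10 at 12.1 and Hoxc4 at 11.6. The highest single member was an anterior gene, Hoxa3, at 38.3. Against endothelium, 8 of 22 measured members were at least 1.5-fold higher and 9 lower, where 24.4% of all genes were higher and 28.5% lower. Hoxc9 was at 4.25 (2.28 to 7.35) and Hoxc8 at 3.43 (2.22 to 4.94), while Hoxd4 was at -5.27 (-10.6 to -2.71) and Hoxd8 at -3.11 (-4.62 to -1.91). The 2016 leukocytes had 142 Hox UMIs, 9.83 CPM, of which Hoxb4 gave 45 and Hoxa7 36.

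To compare cells at 1 depth, smooth muscle cells with at least 10000 UMIs were thinned to 10000, which kept 3386 vehicle and 3144 sunitinib cells and left out 228 and 674 shallower ones. A Hox UMI was then seen in 87.2% (86.0 to 88.3) and 88.8% (87.6 to 89.9) of cells. A UMI of groups 9 to 13 was seen in 433 cells, 12.8% (11.7 to 13.96), and 395 cells, 12.6% (11.4 to 13.8), intervals that overlap. By the most posterior Hox group seen in a cell, group 7 was the commonest class in both libraries, at 24.2% and 34.5% of cells. Of the posterior groups, group 9 held 4.87% and 5.79% and group 10 held 7.53% and 6.58%, below the 10.9% and 10.2% of group 5. A cell held a median of 2 detected Hox genes in both libraries and at most 11 and 10. The variance of that number was 2.29 and 2.41, against 1.77 and 1.87 if the genes were detected independently.

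Detection of 2 Hox genes in the same smooth muscle cell was described by the distance between their paralogue groups and by cluster, with no test between these. For each pair, the cells holding both were divided by the number given by the product of their shares, over pairs where that product was at least 3 cells. The median over 207 vehicle pairs was 0.98 and over 211 sunitinib pairs 0.998. Pairs 0 or 1 group apart had medians of 1.14 and 1.204, pairs 2 to 4 groups apart 1.06 and 1.01, and pairs 5 or more groups apart 0.67 and 0.69. Pairs within a cluster had 1.17 and 1.19, and pairs from different clusters 0.94 and 0.95. These values describe the cells of 1 library each, and pairs share genes.

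Hoxa10 and Hoxc10, of the same group on different chromosomes, gave the highest pair value in both libraries. They met in 51 vehicle cells where the product gave 6.93, a value of 7.36, and in 39 sunitinib cells against 4.92, a value of 7.93. Hoxa9 with Hoxc10 gave 6.45 and 6.70, and Hoxa9 with Hoxa10 gave 5.83 and 6.61. Across the clusters, a HoxA and a HoxC UMI of groups 9 to 13 met in 101 vehicle cells against 15.4 and in 78 sunitinib cells against 12.4, values of 6.55 and 6.31. HoxC genes of groups 4 to 8 met the posterior HoxC genes at 3.53 and 3.35, although Hoxc5 shares bases with Hoxc6, Hoxc8, Hoxc9 and Hoxc10.

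Posterior HoxB did not follow that pattern to the same extent. Hoxb9, the sole member detected of posterior HoxB, met posterior HoxC in 6 vehicle cells against 5.18 and in 7 sunitinib cells against 4.50, values of 1.16 and 1.56. With posterior HoxA it gave 1.34 and 1.47 on 7 and 8 cells, and these small counts limit the precision. It met its own cluster neighbours above the product, at 2.03 and 1.77 with Hoxb7 and 2.24 and 1.28 with Hoxb6. Anterior and posterior members met less often than the product, with groups 1 to 3 and groups 9 to 13 at 0.74 and 0.71. Hoxb2 with Hoxc10 gave 0.58 and 0.51, and Hoxb2 with Hoxa10 gave 0.54 and 0.40. With Hoxb9, groups 1 to 3 stood at 1.04 and 0.99.

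**Figure D4:**
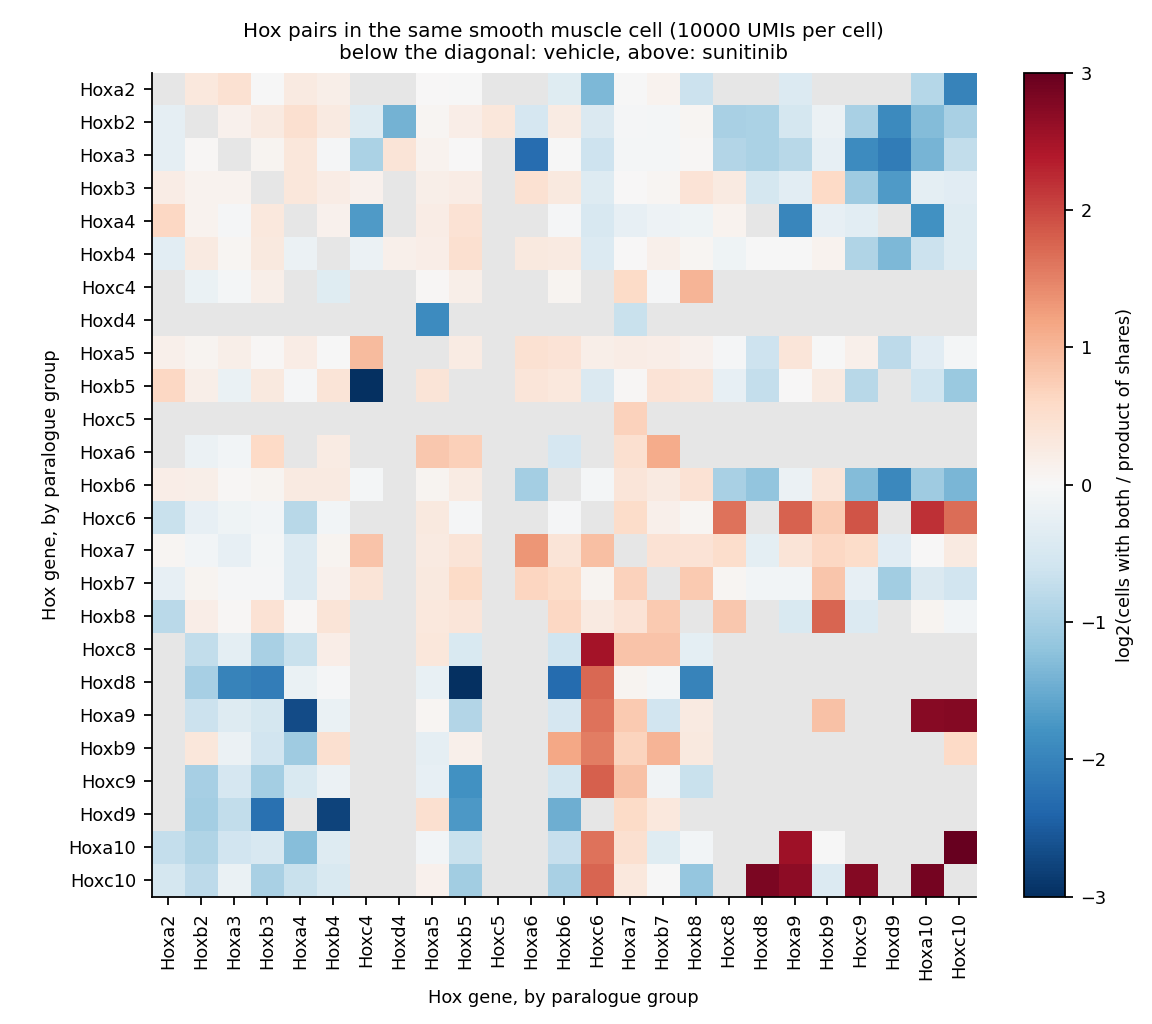
Colour gives log2 of the number of smooth muscle cells holding both genes over the product of their shares, after thinning to 10000 UMIs, with vehicle below the diagonal, sunitinib above, values clipped at 3 and grey where the product was under 3 cells. Posterior HoxA and HoxC genes form a block of high values, with Hoxa10 and Hoxc10 at 7.36 and 7.93 before the log, and their meetings with Hoxb2 are under 1.

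Smooth muscle cells with a UMI of groups 9 to 13 also differed in members that the split did not use. Of 18 members of groups 1 to 8 with at least 20 thinned UMIs in each library, 5 were at least 1.5-fold higher in both libraries and 2 lower in both, where 2.29% of 11317 other genes were higher and 2.74% lower. The median ratio of the 18 was -0.07 and -0.21. Hoxc8 was at 9.93 CPM in vehicle cells with a posterior UMI and 0.948 without, a ratio of 3.39 (2.67 to 4.13), and in the sunitinib library the ratio was 3.19 (2.49 to 3.90). Hoxc6 gave 2.29 (1.88 to 2.69) and 2.19 (1.73 to 2.63), and Hoxd8 gave 4.05 (3.29 to 4.86) and 3.63 (2.75 to 4.55). The other members higher in both were Hoxc4 at 1.13 and 1.48 and Hoxa6 at 0.99 and 1.48, each with an interval that includes 0 in the vehicle library. The lower members were Hoxa4 at -0.997 (-1.93 to -0.19) and -1.12 (-2.10 to -0.28), and Hoxa2 at -1.27 and -0.72, whose intervals include 0.

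Anterior members were not absent from the posterior cells. Hoxb2 was at 32.6 CPM with a posterior UMI and 47.3 without in the vehicle library, a ratio of -0.54 (-0.80 to -0.29), and at -0.87 (-1.19 to -0.56) in the sunitinib library. Hoxa5 was at 0.0035 and -0.15, and Hoxb4 at -0.12 and -0.31, with intervals that include 0. Hoxb7 at 0.24 and -0.15 and Hoxb8 at -0.51 and 0.21 also had intervals that include 0 in both libraries. The remaining middle HoxA and HoxB genes were apart in 1 library or both, as given for Hoxa4 and Hoxa6. Hoxb5 was at -0.71 (-1.33 to -0.15) and -0.39 (-0.90 to 0.08), and Hoxb6 at -0.02 (-0.37 to 0.32) and -0.63 (-1.07 to -0.22). Hoxa7 was at 0.50 (0.29 to 0.71) and 0.28 (0.09 to 0.46). The higher Hoxa7 of the sunitinib library was found on both sides of the split, at 0.46 (0.20 to 0.72) in cells with and 0.69 (0.58 to 0.80) in cells without a posterior UMI. The values for Hoxb7 were 0.24 (-0.26 to 0.74) and 0.63 (0.44 to 0.82). Median depth before thinning was 16387 UMIs with a posterior UMI and 17460 without in the vehicle library, and 16581 and 17564 in the sunitinib library. Endothelial markers summed to 57.3 CPM with and 66.8 without in the vehicle library and to 75.2 and 68.7 in the sunitinib library, and fibroblast markers to 2248 and 2497 and to 2051 and 2392. The median share of contractile UMIs was 4.01% and 4.02% in the vehicle library and 4.46% and 4.65% in the sunitinib library.

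**Figure D5:**
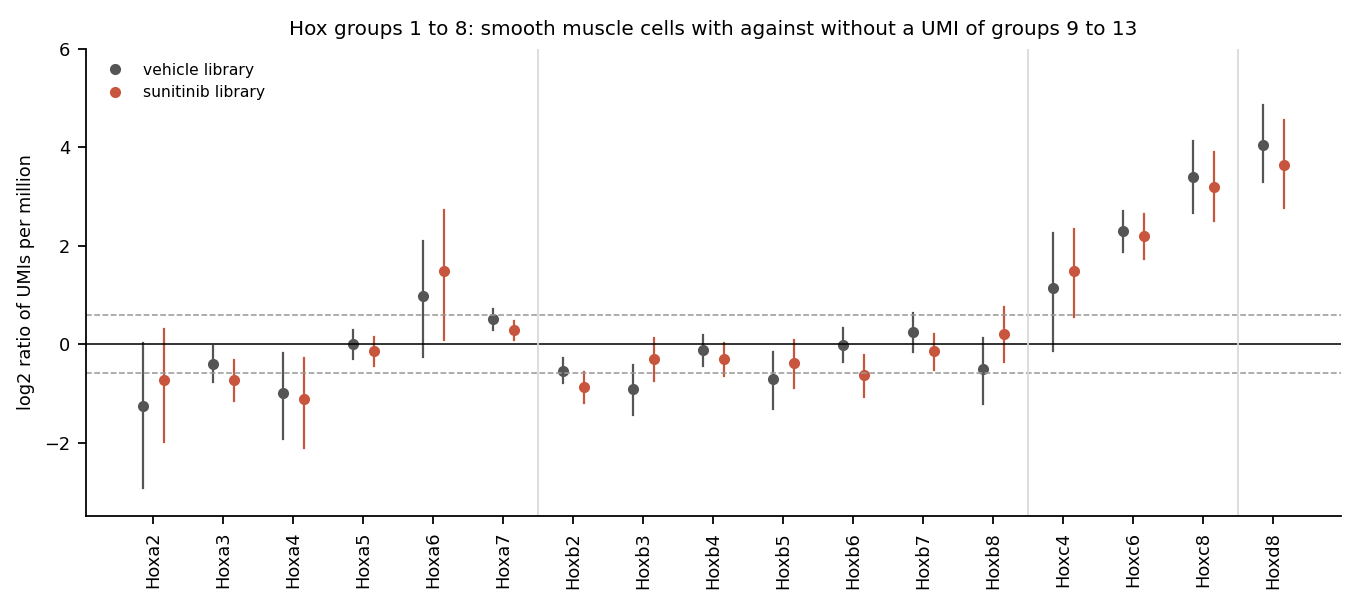
For members of groups 1 to 8, points give the log2 ratio of CPM between smooth muscle cells with and without a UMI of groups 9 to 13, in the vehicle and sunitinib libraries, with 95% counting intervals. Hoxc6, Hoxc8 and Hoxd8 lie above 2 in both libraries, and Hoxb2 and Hoxa4 lie below 0 in both.

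Outside the Hox genes, few genes followed the posterior members, and those that did included other regional transcription factors. Of 9181 ranked genes with at least 100 thinned UMIs in each library, 1.08% were at least 1.5-fold higher in both libraries in cells with a posterior UMI and 1.61% lower. Among those with the largest ratios were Pcp4 at 3.30 and 3.78, Fbln7 at 3.07 and 3.41, Tmem176b at 2.67 and 2.95 and the receptor kinase Kit at 2.54 and 3.13. The 5 lowest were Hand2 at -2.60 and -3.38, Prrx2 at -2.25 and -3.67, Brip1 at -2.203 and -2.03, Tbx20 at -2.03 and -2.65 and Rasl10b at -2.15 and -1.87. Of these, Hand2 and Tbx20 are transcription factors of heart and outflow tract development. Rgs5, a marker of pericytes and of some arterial muscle, was at 5611 CPM in vehicle cells with a posterior UMI and 1337 without, and at 5420 and 1269 in the sunitinib library. Of 4 measured pericyte markers, Rgs5 was the 1 at least 1.5-fold higher in both libraries, and the list's median ratio was 0.17 and -0.03.

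Of the lists, to be read against the same 1.08% higher and 1.61% lower, 9 cofactors were measured in this split and 1 was higher in both libraries, Meis1 at 1.17 (0.87 to 1.46) and 0.81 (0.47 to 1.14). Of 14 measured positional transcription factors, 1 was higher and 4 were lower, Tbx20, Hand2, Prrx2 and Foxf1, the last at -1.13 (-1.75 to -0.57) and -1.53 (-2.35 to -0.81). Of 6 upstream genes, 1 was lower, the retinoic acid-degrading enzyme Cyp26b1 at -0.85 (-1.64 to -0.16) and -1.49 (-2.51 to -0.62). None of 18 Polycomb and Trithorax genes was 1.5-fold apart in both libraries. Of 4 RNAs of the clusters, 2 were lower, Hoxaas2 and Hoxb3os, which overlap Hoxa3 and, in HoxB, Hoxb2 and Hoxb3.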

How the data were processed

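The deposited matrices hold UMI counts per gene and cell, made by the authors with Cell Ranger (6.0.0 for vehicle and sunitinib, 7.1.0 for sunitinib plus Yoda1, per the file headers) against mm10, per the submitters' processing notes. The intron and strand settings are not given in the sources used here. Members and gene lists were chosen with earlier results of these data known. From the counts, UMIs were summed over the cells of a class and library and divided by that class's total, in Python 3.11.15 with numpy 2.4.6 and scipy 1.17.1. Ratios need at least 20 UMIs over both sides and carry exact conditional binomial intervals (95%). A side at 0 was set to 3 counts over the class. Shares carry Clopper-Pearson intervals. UMIs are molecules, but intervals cover counting error only. Libraries hold 28364203 to 73901343 UMIs. Cells were thinned to 10000 or 3000 UMIs at random, and shallower cells were left out. Genes named beside the posterior members were taken from the 5 highest and 5 lowest by the smaller ratio of both libraries. A few genes of the lists and of this ranking, and 1 Hox member that is also left out of the figures, are counted but not reported here. Scrublet in scanpy 1.11.5 called 4, 0 and 4 cells at its own threshold, which was not used, and no doublets were removed. Other scalings used edgeR 4.0.16. The ratio intervals and the thinning were tested on simulated data, and co-detection was checked there only for a pair of independent genes. Gene positions follow GENCODE vM21 on GRCm38, the build called mm10.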

Additional observations from a re-analysis of the deposited data

Results flagged for a closer look

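Hoxa10 differed in opposite directions in the classes between the sunitinib and vehicle libraries, with a log2 ratio of -0.25 (-0.50 to -0.01) in smooth muscle, from 327 and 249 UMIs, and of 1.01 (0.29 to 1.77) in endothelium, from 24 and 54 UMIs. The values are given because both intervals exclude 0 on different sides, and the difference between the classes was not tested. Over the alternatives the smooth muscle value ranged from -0.65 to -0.16 and the endothelial value from 0.91 to 1.49.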

How the results depend on the processing

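No paired analysis was possible because each group is 1 library. Of 122 alternative values for the main results, 102 stayed within the counting interval of the reported value (for a median, that of its middle members, and for a count, within 1.5-fold) and 20 moved, and of 146 for single genes 137 stayed, 8 moved and 1 past 1.5-fold changed sign. Medians under 1.5-fold did change sign: the Hox median of sunitinib against vehicle ranged from -0.07 to 0.16 in smooth muscle and from -0.15 to 0.11 in endothelium, and that of sunitinib plus Yoda1 against sunitinib endothelium from -0.29 to 0.05. TMM and median-of-ratios factors moved all log2 ratios of a comparison together, by -0.08 to -0.11 between sunitinib and vehicle, by -0.33 with either for smooth muscle of the third library and by -0.16 and -0.19 for its endothelium. The count of members 1.5-fold apart in smooth muscle was 2 with edgeR's TMM factors instead of 4. In endothelium it was 4 with a minimum of 4 UMIs and 4 with mean CPM over cells, instead of 2, and between the sunitinib plus Yoda1 and sunitinib libraries it was 17 with that minimum instead of 10. Smooth muscle drawn at 5% contractile UMIs left 5 cells in the third library: its median ratio to the sunitinib library was then 2.71, its count 9 and Hoxa7 reversed to 0.29. Thinning each cell to 3000 UMIs at the most also gave a count of 9. The share of smooth muscle cells with a posterior UMI depended on its definition: 19.7% and 19.2% with groups 8 to 13, 7.91% and 6.77% with groups 10 to 13, 5.52% and 5.15% with at least 2 UMIs, 5.61% and 5.19% when thinned to 3000, and 16.9% and 14.9% without thinning. At 5% contractile UMIs the sunitinib share was 10.4%, and the vehicle value for posterior HoxA with HoxC was 4.15. The sunitinib value was 7.96 when thinned to 3000. The alternatives with a ceiling of 3000 UMIs per cell, a 4-UMI minimum, mean CPM, other size factors and doublet scores were chosen after the data were seen. Endothelium is limited by 140 and 160 cells, and smooth muscle of the third library by 65.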

Other observations

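Smooth muscle cells with a UMI of any Hox gene were compared with the 433 vehicle and 353 sunitinib cells that had none after thinning to 10000 UMIs. Of 9181 genes, 0.523% were at least 1.5-fold higher in both libraries in cells with a Hox UMI and 0.283% lower. The highest by the same ranking were Ptger3 at 1.87 and 2.18, Zfhx4 at 1.58 and 2.34, Tmem176a at 1.25 and 1.33, Rgs5 at 1.05 and 1.48 and Cytl1 at 2.05 and 1.04. Among the lowest were Hand2 at -1.92 and -2.08, Igfbp4 at -1.52 and -1.67, 2210407C18Rik at -1.21 and -1.42 and Tbx20 at -1.16 and -1.29. Hand2 was at 41.8 CPM in vehicle cells without a Hox UMI and 11.0 in those with one, and at 43.6 and 10.3 in the sunitinib library. Of the fixed lists, 2 of 14 measured positional factors were lower in both libraries, Hand2 and Tbx20, and 1 of 4 RNAs of the clusters, Hoxb3os. None of 9 cofactors, 6 upstream genes or 18 Polycomb and Trithorax genes was 1.5-fold apart in both.

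In the endothelium of the sunitinib plus Yoda1 library, 4 of 8 measured cofactors were at least 1.5-fold higher than in the sunitinib library and 1 lower. Of all genes, 37.1% were higher and 20.3% lower, and with so few genes nothing particular to the cofactors is read from this count. In the 65 smooth muscle cells of that library 8 of 11 cofactors were higher and 0 lower, where 32.9% of all genes were higher and 10.1% lower. In that endothelium, Pbx3 was at 2.60 (1.88 to 3.39) and Meis1 at 0.79 (0.02 to 1.61). Of 17 measured positional factors, 8 were higher and 9 lower, where 20.3% of all genes were lower and 57.4% apart either way. Among these factors were Tbx3 at 5.78 (4.21 to 8.07) on 209 and 3 UMIs and Nkx2-3 at -4.47 (-5.95 to -3.30) on 6 and 105 UMIs.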
